A study of Mus musculus with 20 samples.

Results

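Axon guidance ligands and receptors were followed through the first day of transcription factor-driven germ cell induction in mouse cells. The members were chosen by gene symbol alone. They are the semaphorins and their plexin and neuropilin receptors, the ephrins and Eph receptors, the netrins and Unc5 receptors, the Slits and Robo receptors, the repulsive guidance molecules Rgma and Rgmb, and the Nogo receptor homologue Rtn4rl1. Of 18193 genes on the array, 72 matched, through 159 probe sets, and each gene was read from whichever of its probe sets was brightest on average across the 20 arrays. Unc5cl, a relative of the Unc5 receptors, and the antisense transcript Plxna4os1 matched by their letters only and were given no role as ligand or receptor.

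The arrays held 5 male embryonic stem cell lines of the mixed strain C57BL/6;129 at 2 stages, with 2 arrays, called biological duplicates by the series, in each of 10 groups. All lines, the parental BVSCR26rtTA line included, carry the reporters Blimp1-mVenus and stella-ECFP and the doxycycline-responsive activator from Rosa26. The BP14A line, called the 3-factor line here, also carries doxycycline-inducible piggyBac transgenes for Blimp1 (the protein of Prdm1), Prdm14 and Tfap2c. The B, P14 and A lines carry only the Blimp1, the Prdm14 or the Tfap2c transgene and are called the Blimp1, Prdm14 and Tfap2c lines. The first stage was EpiLCs (epiblast-like cells, cultured to resemble the epiblast just after implantation) at 36 h of differentiation without doxycycline, and the second was floating aggregates after 24 h in 1.5 µg/ml doxycycline, called day 1. Since a line is represented by 1 clone, effects of the factor and of the clone cannot be told apart. Aggregation and doxycycline came together, so their parts in a stage difference cannot be told apart either.

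Guidance proteins steer growing axons and migrating cells by attraction or repulsion at the cell surface. Semaphorins signal through plexins, with neuropilins as co-receptors for the secreted class; netrins attract through Dcc and neogenin and repel through Unc5 receptors; Slits repel through Robo receptors; ephrins and Eph receptors signal in both directions between touching cells. The same families act outside the nervous system, in the sorting of embryonic cell layers and in blood vessel growth, and Rgma and Rgmb are also co-receptors for bone morphogenetic proteins, the signals that specify germ cells in the mouse embryo.

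The deposited values were log2 signals from 0 to 13.83, with array medians of 4.6 to 4.86 and 639 to 810 values at 0 on each array. Replicate arrays correlated at Pearson r of 0.9888 to 0.9921 over the genes tested, which are not independent replicates. All 6 epiblast markers (Pou5f1, Fgf5, Otx2, Pou3f1, Dnmt3b and Sox2) lay above the filter level of 3.95 in every group. All 5 early germ cell markers on the array were higher than in the parental line on day 1 in the 3-factor, Blimp1 and Prdm14 lines, and 0 of 5 were higher in the Tfap2c line. The 5 were Prdm1, Dppa3, Tfap2c, Kit and Ifitm3, of which Prdm1 and Tfap2c are also genes of the transgenes. Tfap2c itself read 11.55 and 11.58 in the 3-factor line, 9.38 and 9.81 in the Blimp1 line, 10.70 and 10.91 in the Prdm14 line, against 6.38 and 6.29 in the parental line and 5.80 and 6.08 with the Tfap2c transgene. Prdm1 read 8.63 and 8.71 in the 3-factor line, 6.25 and 6.47 in the Blimp1 line and 7.23 and 7.39 in the Prdm14 line. It read 4.90 and 5.01 in the parental line and 4.84 and 5.18 in the Tfap2c line. Prdm1 was higher in the Prdm14 line, which carries no Blimp1 transgene, than in the Blimp1 line. Prdm14 read 3.21 and 3.80 in the Prdm14 line and 3.40 and 4.67 in the 3-factor line, which overlapped the parental 3.59 and 3.67. The Tfap2c and Prdm14 lines were thus not above the parental line at the genes they were made to express, and the 3-factor arrays lay on either side of the parental ones at Prdm14. All lines are called by their labels below, and whether these probe sets read the transgenes was not tested. Fewer cells of a type and less RNA per cell cannot be told apart in these bulk samples.

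A gene was tested when at least 1 group mean reached 3.95, the 40th percentile of all values, which 13986 genes and 59 of the 72 members did. All 8 ephrins passed, as did 18 of 20 semaphorins, 8 of 10 plexins, 11 of 13 Eph receptors and both neuropilins. The 13 members below the level were Sema3d, Sema3f, Plxnb3, Plxna4os1, Epha5, Epha6, Ntn3, Ntn4, Unc5a, Unc5c, Unc5d, Slit1 and Robo2, with signals from 0 to 4.30 and a median of 2.77. Of the 59 tested members, 35 reached the level in every group and 5 in 1 group only (Epha3, Epha8, Ephb6, Rgma and Sema3g). A member that passed through 1 high group had to differ between groups, so counts of members are descriptions and support nothing by themselves. In parental EpiLCs the member with the highest signal was Sema4d among semaphorins (8.48 and 8.60), Plxna1 among plexins (9.31 and 9.44), Efnb2 among ephrins (7.99 and 8.42), Epha2 among Eph receptors (8.05 and 8.35) and Unc5b among Unc5 receptors (9.55 and 9.02). Robo1 led the Robo receptors (7.53 and 7.34) and Slit2 the Slits (5.44 and 5.31). These signals come from different probe sets and do not rank the transcripts.

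Promoter windows from 250 bases before to 50 bases after the annotated start were available for 60 members, as 78 windows, from RefSeq on GRCm38.p6. They were searched on both strands for letters known from the factors' binding motifs: GGTCTCT for Prdm14, GTGAAAG for Blimp1 and GCCNNNGGC, which reads the same on both strands, for the AP-2 family that holds Tfap2c. GGTCTCT was in 5.68% of all 32851 windows and 8.97% of the members' windows, GTGAAAG in 4.24% and 7.69%, and GCCNNNGGC in 16.6% and 23.1%. Of the 15 members that differed from the parental line in at least 1 line on day 1, 11 had windows, 13 in all, of which 1 held the Prdm14 letters, 1 the Blimp1 letters and 5 the AP-2 letters. The 4 windows below belong to members that were lower in the 3-factor line and hold a match, shown in capitals; matches to different motifs did not overlap. They are printed 5′ to 3′ on the strand of the gene. A match describes these letters and is not a binding site. The Unc5b window at chr10:60831532-60831831 (minus strand) and the Plxnb2 window at chr15:89180739-89181038 (minus strand) each hold an AP-2 match. A further Plxnb2 window and a Sema4c window also hold an AP-2 match and are not printed. The Epha10 window at chr4:124881535-124881834 (plus strand) holds a Prdm14 and an AP-2 match, and the Sema3e window at chr5:14025026-14025325 (plus strand) holds a Blimp1 match on its opposite strand.
Unc5b: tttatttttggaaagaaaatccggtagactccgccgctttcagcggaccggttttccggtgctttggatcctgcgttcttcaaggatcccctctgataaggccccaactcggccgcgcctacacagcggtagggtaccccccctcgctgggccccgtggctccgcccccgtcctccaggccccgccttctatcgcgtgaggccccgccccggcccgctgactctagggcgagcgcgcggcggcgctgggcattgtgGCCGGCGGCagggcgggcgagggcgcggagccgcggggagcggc
Plxnb2: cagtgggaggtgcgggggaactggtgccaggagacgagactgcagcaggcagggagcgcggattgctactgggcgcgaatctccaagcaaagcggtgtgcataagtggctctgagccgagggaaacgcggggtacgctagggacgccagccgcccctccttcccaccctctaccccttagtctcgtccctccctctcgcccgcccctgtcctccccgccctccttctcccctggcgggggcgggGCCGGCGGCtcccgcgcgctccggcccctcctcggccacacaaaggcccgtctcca
Epha10: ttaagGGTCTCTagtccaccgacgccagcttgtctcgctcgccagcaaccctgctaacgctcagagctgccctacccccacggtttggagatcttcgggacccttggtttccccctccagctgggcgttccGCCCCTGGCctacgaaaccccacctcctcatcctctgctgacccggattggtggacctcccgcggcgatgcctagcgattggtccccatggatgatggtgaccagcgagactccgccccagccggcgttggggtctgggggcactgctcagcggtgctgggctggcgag
Sema3e: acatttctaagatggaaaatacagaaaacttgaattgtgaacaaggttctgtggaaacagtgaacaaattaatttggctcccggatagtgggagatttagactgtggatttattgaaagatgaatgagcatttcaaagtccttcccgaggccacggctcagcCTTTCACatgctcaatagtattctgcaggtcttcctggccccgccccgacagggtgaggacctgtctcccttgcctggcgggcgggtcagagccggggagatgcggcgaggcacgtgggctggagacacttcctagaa

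Before doxycycline, no guidance member was called different from the parental line in any factor line. The call rule throughout was an adjusted p under 0.05 in limma's test, with Benjamini-Hochberg adjustment over all 13986 genes, together with a log2 difference of at least 1. In EpiLCs it called 0 of 59 members in the 3-factor line, where it called 0.0143% of all genes, and 0 in the Blimp1 (0.0787% of all genes), Prdm14 (0.0358%) and Tfap2c (0.0286%) lines. Unadjusted p-values under 0.05 numbered 5, 7, 4 and 5 members in these comparisons. The same parental arrays served in all of them. In the same order of lines, the median size of the difference was 0.2, 0.225, 0.14 and 0.18 over the members. Over all genes it was 0.1, 0.115, 0.095 and 0.105. Member differences ran from -0.92 to 0.67, -1.58 to 1.23, -1.24 to 1.22 and -1.2 to 1.81. The missing calls do not show that the lines were alike.

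In the parental line, which carries no factor transgene, 9 of 59 members differed between EpiLCs and aggregates after 24 h with doxycycline (15.3%; 6.56% of all genes). The 7 members that rose (3.95% of all genes rose) were 6 ligands (Efnb1, Ntn1, Efnb2, Sema6a, Efna5 and Sema3c) and the receptor Epha7, and the 2 that fell (2.61% of all genes fell) were the ligand Sema4g and the receptor Epha2. Of the tested members 32 are ligands and 26 receptors. The median size of the log2 difference was 0.555 over the members and 0.262 over all genes, and the signed median was 0.05 in both. Members also had the larger median size in the EpiLC comparisons above, where no member was called. The transmembrane ligand Efnb1 (ephrin-B1), which binds EphB receptors, read 2.24 and 2.98 in parental EpiLCs and 6.27 and 5.77 on day 1. Both EpiLC arrays were below the filter level and the groups did not overlap. Efnb1 rose by 3.41 on the log2 scale (SE 0.39, limma adjusted p = 3.29e-05), a size that is approximate because of the dim EpiLC signal. Its 2 other probe sets gave 2.64 and 0.60.

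The other ephrins that rose did so from clear EpiLC signals. Efnb2, a transmembrane ephrin known for its place in arteries, read 7.99 and 8.42 in parental EpiLCs and 9.89 and 9.66 on day 1, a rise of 1.57 (SE 0.17, limma adjusted p = 2.71e-05). Efna5, a lipid-anchored ephrin of topographic maps in the brain, went from 6.20 and 6.73 to 7.95 and 7.92, a rise of 1.47 (SE 0.21, limma adjusted p = 0.000193). Day 1 arrays lay above EpiLC arrays for both genes without overlap. Among the Eph receptors, Epha7 read 6.03 and 5.99 before and 7.34 and 7.00 after, and rose by 1.16 (SE 0.14, limma adjusted p = 5.71e-05). Epha2, a receptor for A-type ephrins that is widespread in epithelia, read 8.05 and 8.35 before and 7.25 and 6.95 after, and fell by 1.10 (SE 0.12, limma adjusted p = 2.85e-05). The Epha2 groups did not overlap, but without the second parental array of either stage its difference was -0.95 and no longer reached the size rule. Without the first parental day 1 array the Epha7 difference was 0.99, also short of it.

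The transmembrane semaphorin Sema6a, a ligand of A-type plexins, read 5.98 and 6.34 in parental EpiLCs and 7.73 on both day 1 arrays, a rise of 1.57 (SE 0.16, limma adjusted p = 1.28e-05). The secreted Sema3c, known from the developing heart, read 4.6 and 5.53 and then 6.44 and 6.24, a rise of 1.27 (SE 0.24, limma adjusted p = 0.00132). Sema4g went the other way, from 4.74 and 4.66 to 3.44 and 3.38, a difference of -1.29 (SE 0.44, limma adjusted p = 0.0391). The secreted ligand netrin-1 (Ntn1) read 3.75 and 4.41 before and 5.82 and 5.56 after, a rise of 1.61 (SE 0.24, limma adjusted p = 0.000299). Groups did not overlap for any of the 4 genes. A second Ntn1 probe set went the opposite way by -1.08, from a mean of 4.58 to 3.50, and the mean of both probe sets gave 0.26 (limma adjusted p = 0.668). The Sema4g call ended without any one of its 4 arrays, with limma adjusted p from 0.103 to 0.133. Without the first EpiLC array, Sema3c rose by 0.81, under the size rule (limma adjusted p = 0.00695). With the mean of all probe sets of a gene, 5 members passed in place of 9, and Ntn1, Sema3c, Efna5 and Epha7 did not.

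**Figure D1:**
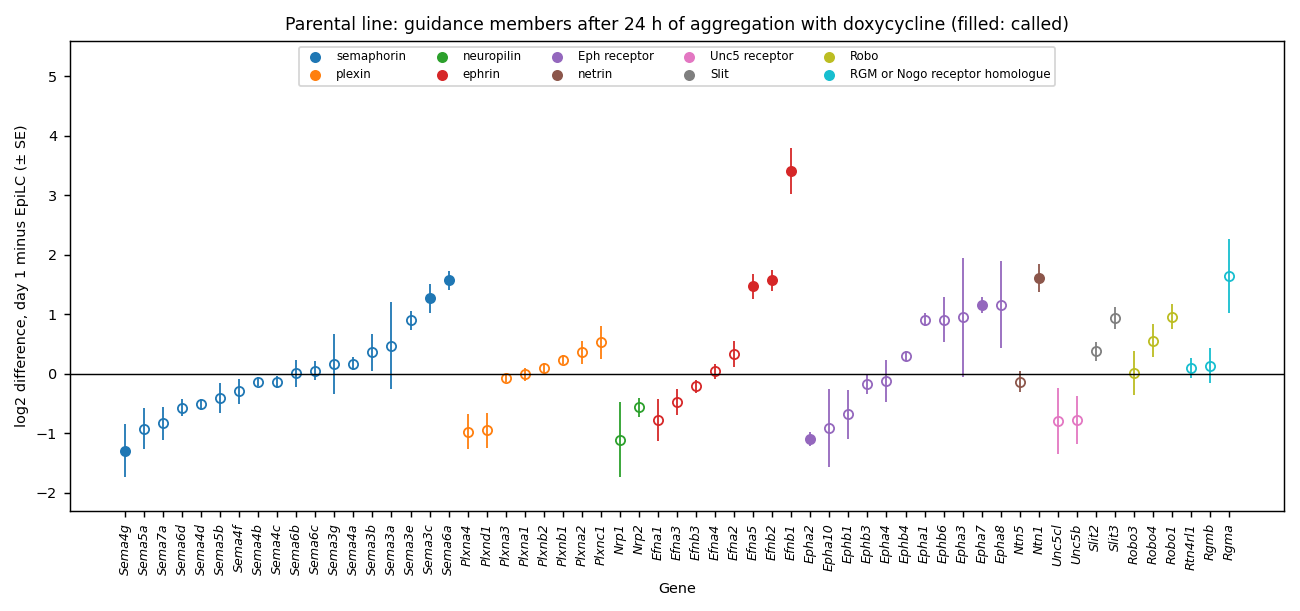
Log2 difference (vertical axis) between parental day 1 aggregates and parental EpiLCs for the 59 tested members, grouped by family in colour along the horizontal axis, with bars for the standard error of the limma fit (2 arrays per group). Filled points passed the call rule: 7 above 0, led by Efnb1 at 3.41, and Sema4g and Epha2 below 0.

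In the 3-factor line, 12 of 59 members differed from the parental line on day 1 (20.3%; 6.6% of all genes). In this comparison 9 members were lower (15.3%; 3.85% of all genes) and 3 were higher (5.08%; 2.75% of all genes). The lower members were the ligands Sema6a, Sema3e, Sema4c, Efnb2 and Rgma and the receptors Rtn4rl1, Unc5b, Epha10 and Plxnb2. The higher ones were Ntn1, Efnb1 and Epha2. The median size of the difference was 0.50 over the members and 0.22 over all genes. As in the EpiLC comparisons without called members, it was larger over the members.

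Sema6a lay between 5.98 and 6.53 on the 10 EpiLC arrays of all lines, with a median of 6.31. On day 1 it read 7.73 on both parental arrays, 3.54 and 3.04 in the 3-factor line, 5.80 and 5.56 in the Blimp1 line, 6.02 and 6.00 in the Prdm14 line, and 7.58 and 7.68 in the Tfap2c line. The 3-factor arrays were the lowest, and those of the Blimp1 and Prdm14 lines lay between them and the parental arrays. Sema6a differed from the parental line by -4.44 in the 3-factor line (SE 0.16, limma adjusted p = 2.25e-09), with a mean below the filter level, so that this size and those of Sema6a against the 3-factor line below are approximate. Its 2 other probe sets gave smaller differences of -1.17 and -0.78.

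Sema4c and its receptor Plxnb2 (plexin-B2) were both lower. Plxnb2 lay between 7.70 and 7.99 on the EpiLC arrays and read 7.97 and 7.96 in parental aggregates, 6.33 and 6.52 in the 3-factor line, 8.16 and 8.14 in the Blimp1 line, 6.47 and 6.41 in the Prdm14 line, and 7.99 and 8.12 in the Tfap2c line. The 3-factor and Prdm14 arrays overlapped each other and lay apart from all other groups. Plxnb2 differed by -1.54 in the 3-factor line (SE 0.08, limma adjusted p = 3.51e-08). Sema4c read 7.26 and 7.33 in parental aggregates, 5.81 and 6.08 in the 3-factor line, 7.61 and 7.43 in the Blimp1 line, 6.45 and 6.29 in the Prdm14 line, and 7.38 and 7.33 in the Tfap2c line. It was again low in the 3-factor and Prdm14 lines, and in the 3-factor line it differed by -1.35 (SE 0.10, limma adjusted p = 9.33e-07). The secreted Sema3e, a ligand of plexin-D1 in blood vessels, read 8.36 and 8.51 in parental aggregates and 7.15 and 6.91 in the 3-factor line, below every EpiLC array (7.18 to 7.84). Sema3e differed by -1.41 (SE 0.16, limma adjusted p = 3.54e-05). Its 3 other probe sets were lower too, with differences of -1.78, -0.60 and -0.31. Its receptor Plxnd1 stayed near the filter level, at 3.09 and 3.27 in parental aggregates and 3.36 and 4.32 in the 3-factor line (limma adjusted p = 0.13).

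In the netrin system the ligand and a repulsive receptor moved in opposite directions. Ntn1 lay between 3.39 and 4.41 in EpiLCs and read 5.82 and 5.56 in parental aggregates, 7.37 and 7.22 in the 3-factor line, 6.83 and 7.11 in the Blimp1 line, 7.59 and 7.45 in the Prdm14 line, and 5.05 and 5.10 in the Tfap2c line. All 6 arrays of the 3-factor, Blimp1 and Prdm14 lines lay above the parental ones. Ntn1 was 1.60 higher in the 3-factor line (SE 0.24, limma adjusted p = 0.000325), but its second probe set differed by -0.04 with both means below the filter level, and the mean of the 2 probe sets ended the call at 0.79 (limma adjusted p = 0.173). Unc5b lay between 8.60 and 9.55 in EpiLCs and read 8.85 and 8.17 in parental aggregates, 5.33 and 5.43 in the 3-factor line, 8.75 and 8.14 in the Blimp1 line, 6.48 and 5.45 in the Prdm14 line, and 9.09 and 8.16 in the Tfap2c line. All other groups stood well above the 3-factor and Prdm14 arrays. Unc5b differed by -3.13 in the 3-factor line (SE 0.40, limma adjusted p = 9.31e-05), and its second probe set gave -3.19.

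The attractive netrin receptors did not move between lines in this way. Dcc read 5.50 and 5.57 in parental aggregates and 5.50 and 5.58 in the 3-factor line. Neo1 (neogenin), which binds netrins and repulsive guidance molecules, read 7.56 to 8.01 on the EpiLC arrays, 8.94 and 8.93 in parental aggregates and 9.01 and 9.0 in the 3-factor line. It rose with aggregation in the parental line by 1.22 (SE 0.10, limma adjusted p = 2.8e-06).

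Of the lipid-anchored members, Rtn4rl1, a homologue of the Nogo receptor that binds chondroitin sulfate proteoglycans, differed most. It lay between 7.00 and 7.28 in EpiLCs and read 7.26 and 7.13 in parental aggregates, 2.94 and 3.36 in the 3-factor line, 6.52 and 6.73 in the Blimp1 line, 3.92 and 3.56 in the Prdm14 line, and 7.73 and 7.40 in the Tfap2c line. Below the filter level were all 3-factor and Prdm14 arrays, and no other array. Rtn4rl1 differed by -4.04 in the 3-factor line (SE 0.17, limma adjusted p = 5.92e-09), and its second probe set gave -2.21. Since the 3-factor and Prdm14 means were below the filter level, the sizes of this and the later Rtn4rl1 differences are approximate. Rgma, a ligand of neogenin, was dim throughout: it read 3.78 and 3.57 in parental aggregates, 0.16 and 2.10 in the 3-factor line, 4.71 and 4.94 in the Blimp1 line, 2.30 and 1.33 in the Prdm14 line, and 2.64 and 2.65 in the Tfap2c line. Only the Blimp1 arrays exceeded the filter level, so Rgma was tested through that group alone, and its differences from the Blimp1 line are given without a test although they are counted below. Its difference in the 3-factor line was -2.54 (SE 0.62, limma adjusted p = 0.00835), between 2 means below that level, and the call ended without the first 3-factor array (-1.57, limma adjusted p = 0.0918).

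Ephrins and Eph receptors differed in both directions. Efnb2 lay between 7.84 and 8.60 in EpiLCs and read 9.89 and 9.66 in parental aggregates, 8.41 and 8.25 in the 3-factor line, 8.50 and 8.16 in the Blimp1 line, 9.73 and 9.45 in the Prdm14 line, and 9.87 and 9.62 in the Tfap2c line. The 3-factor and Blimp1 arrays stayed within the range of EpiLCs, while the parental, Prdm14 and Tfap2c arrays lay above it. Efnb2 differed from the parental line by -1.45 on the log2 scale in the 3-factor line (SE 0.17, limma adjusted p = 5.05e-05). Efnb1 lay between 2.24 and 3.96 in EpiLCs and read 6.27 and 5.77 in parental aggregates, 7.34 and 7.54 in the 3-factor line, 8.10 and 8.62 in the Blimp1 line, 6.63 on both arrays of the Prdm14 line, and 5.28 and 5.71 in the Tfap2c line. The Blimp1 arrays were the highest, with the 3-factor arrays next and no overlap between them. Efnb1 was 1.42 higher in the 3-factor line (SE 0.39, limma adjusted p = 0.0157), a call that ended without the second parental array (1.17, limma adjusted p = 0.114) or the second 3-factor array (1.32, limma adjusted p = 0.0853).

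Epha2 lay between 7.94 and 8.41 in EpiLCs and read 7.25 and 6.95 in parental aggregates, 8.19 and 8.12 in the 3-factor line, 6.74 and 6.75 in the Blimp1 line, 8.23 and 8.27 in the Prdm14 line, and 7.10 and 6.99 in the Tfap2c line. The 3-factor and Prdm14 arrays were within the range of EpiLCs, and all other day 1 arrays were below it. Epha2 was 1.05 higher in the 3-factor line than in the parental line (SE 0.12, limma adjusted p = 3.85e-05), and 0.91 higher without the second parental array, under the size rule. Epha10, an Eph receptor without kinase activity, read 4.03 and 4.15 in parental aggregates, 3.20 and 1.15 in the 3-factor line, 3.35 and 3.20 in the Blimp1 line, 1.69 and 0.11 in the Prdm14 line, and 4.08 and 4.06 in the Tfap2c line. The 2 arrays of the 3-factor line were far apart and both under the filter level. Its difference of -1.92 (SE 0.65, limma adjusted p = 0.0454) did not pass without either parental array (limma adjusted p = 0.125 and 0.151) or without the second 3-factor array (-0.89, limma adjusted p = 0.39).

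**Figure D2:**
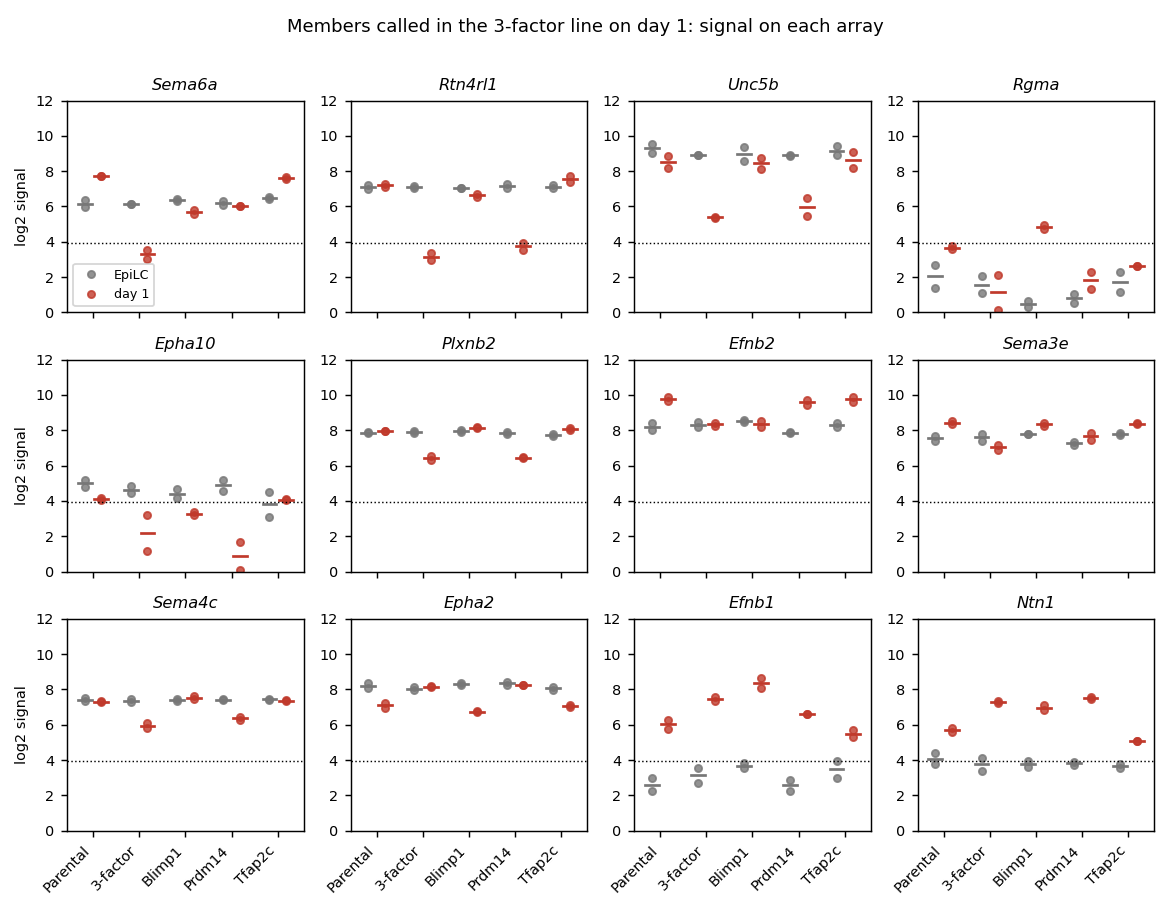
Log2 signal (vertical axes) on each of the 20 arrays for the 12 members that differed between the 3-factor and the parental line on day 1. Points are single arrays, short bars are group means, grey marks EpiLCs and red marks day 1, and the dotted line is the filter level of 3.95. The red points of Rtn4rl1, Unc5b, Plxnb2 and Sema4c drop in the 3-factor and Prdm14 columns, those of Efnb2 are low in the 3-factor and Blimp1 columns, and Sema6a is lowest in the 3-factor column.

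In the Blimp1 line 6 of 59 members differed from the parental line (10.2%; 2.59% of all genes), of which 3 were higher (1.39% of all genes) and 3 lower (1.19% of all genes). The ephrin Efnb1 was 2.34 higher than in the parental line (SE 0.39, limma adjusted p = 0.00146), and its 2 other probe sets gave 2.62 and 2.17. Ntn1 was 1.28 higher (SE 0.24, limma adjusted p = 0.00369), with 0.56 from its second probe set. The mean of both gave 0.92 and ended the call (limma adjusted p = 0.149). Robo3, a Robo receptor known from commissural axons, read 6.23 and 5.41 against 4.87 and 4.42 in parental aggregates, which did not overlap.

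The Robo3 difference was 1.18 (SE 0.37, limma adjusted p = 0.0461). It did not pass without either parental array (limma adjusted p = 0.083 and 0.219) or without the first Blimp1 array (0.77, limma adjusted p = 0.298), and a second, dim Robo3 probe set gave -0.45. Among the lower members, Sema6a differed by -2.05 (SE 0.16, limma adjusted p = 5.6e-06) and Efnb2 differed by -1.45 (SE 0.17, limma adjusted p = 0.00017), with the arrays given above. The other probe sets gave -1.04 and -0.51 for Sema6a, and -1.45, -0.58 and -0.19 for Efnb2. With the mean of its probe sets Efnb2 differed by -0.92, under the size rule. Sema4f, a transmembrane semaphorin, read 2.49 and 3.17 against 3.89 and 3.79, all below the filter level, a difference of -1.01 (SE 0.21, limma adjusted p = 0.00638). Without the first Blimp1 array, Sema4f differed by -0.67 (limma adjusted p = 0.0591), and without the first parental array by -0.96, under the size rule. Fitted to these 4 arrays alone, 1 of 59 members passed in place of 6, and with the mean of all probe sets of a gene 2 did.

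In the Prdm14 line 9 of 59 members differed from the parental line (15.3%; 5.36% of all genes), 2 of them higher (2.17% of all genes) and 7 lower (3.19% of all genes). Ntn1 was 1.83 higher (SE 0.24, limma adjusted p = 0.000154) and Epha2 1.15 higher (SE 0.12, limma adjusted p = 2.49e-05; 1.00 without the second parental array, which no longer met the size rule). Rtn4rl1 differed by -3.46 (SE 0.17, limma adjusted p = 4.02e-08), Unc5b by -2.54 (SE 0.40, limma adjusted p = 0.000597), Plxnb2 by -1.52 (SE 0.08, limma adjusted p = 6.1e-08) and Sema6a by -1.72 (SE 0.16, limma adjusted p = 6.8e-06). The second Rtn4rl1 and Unc5b probe sets gave -1.86 and -2.27, and those of Sema6a -0.83 and -1.32. These receptors and the ligand were also lower in the 3-factor line, against the same parental arrays.

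The other lower members were dim. Epha10 differed by -3.19 (SE 0.65, limma adjusted p = 0.00332) and Rgma by -1.86 (SE 0.62, limma adjusted p = 0.0468), from the arrays given above. The secreted ligand Slit3 read 3.12 and 3.41 against 4.73 and 4.49 in parental aggregates, without overlap, and its difference was -1.34 (SE 0.19, limma adjusted p = 0.000218). All 3 had Prdm14 means below the filter level, so their sizes are approximate. The Rgma call ended without any one of its 4 arrays, with limma adjusted p from 0.0526 to 0.259. Sema4c and Sema3e, lower in the 3-factor line, passed the p threshold here with smaller differences of -0.93 (SE 0.10, limma adjusted p = 3.1e-05) and -0.79 (SE 0.16, limma adjusted p = 0.00348).

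The Tfap2c line was called different from the parental line on day 1 at 0 of 59 members (0.0286% of all genes). Of these members 4 had an unadjusted p under 0.05. Sema6a differed by -0.10 (95% interval -0.44 to 0.24), Plxna1 by -0.14 (-0.38 to 0.09) and Sema4c by 0.06 (-0.16 to 0.28). Not all members were this near 0. Ntn1 read 5.05 and 5.10 against 5.82 and 5.56 in parental aggregates, without overlap and without a call. Over all 59 members, 34 differences were above 0 and 23 below. They ran from -1.03 to 1.01, so the missing calls do not show that the lines were alike. The median size of the difference was 0.155 over the members and 0.095 over all genes.

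**Figure D3:**
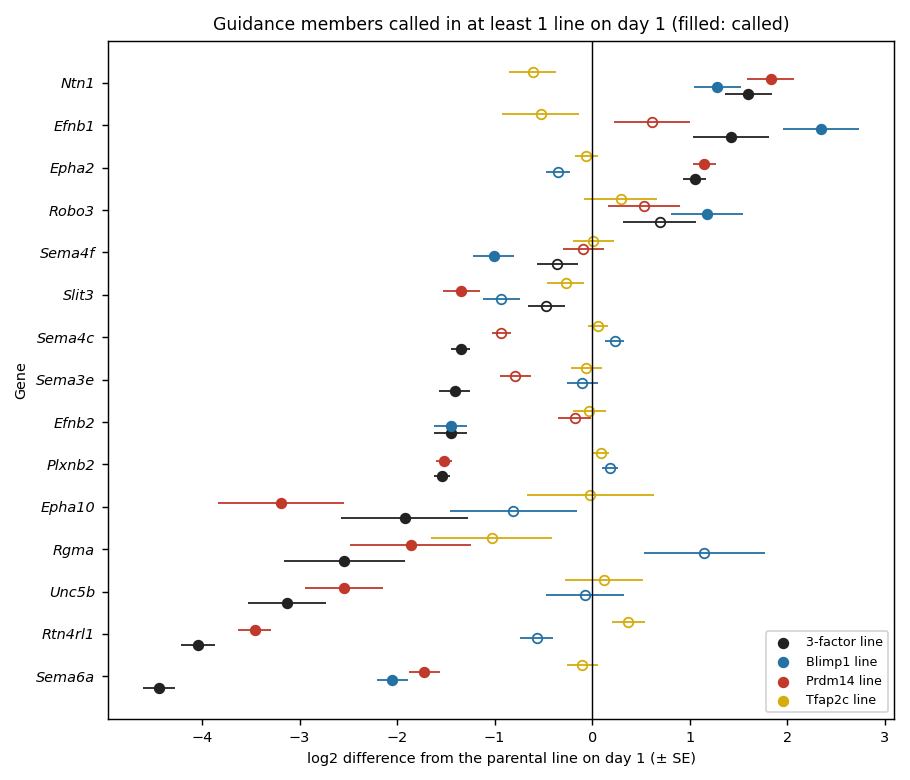
Log2 difference from the parental line on day 1 (horizontal axis) for the 15 members called in at least 1 line, with bars for the standard error of the limma fit (2 arrays per group). Filled points passed the call rule and open points did not. Filled points below 0 include Sema6a in the 3-factor, Blimp1 and Prdm14 lines and Rtn4rl1, Unc5b and Plxnb2 in the 3-factor and Prdm14 lines. Efnb2 has them in the 3-factor and Blimp1 lines. Some open points are below 0 too, such as Rtn4rl1 in the Blimp1 line and Efnb2 in the Prdm14 line.

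The change from EpiLCs to day 1 was also compared between each factor line and the parental line, which takes each line's own EpiLCs into account. It differed at 10 members in the 3-factor line (16.9%; 6.93% of all genes), 4 in the Blimp1 line (6.78%; 2.42% of all genes) and 8 in the Prdm14 line (13.6%; 4.53% of all genes). In the Tfap2c line it differed at 0 members (0% of all genes), with 5 at an unadjusted p under 0.05. Sema6a and Ntn1 were among them in all 3 lines, and Rtn4rl1, Unc5b, Plxnb2 and Epha2 in the 3-factor and Prdm14 lines. With the mean of both its probe sets, the Ntn1 call ended in all 3 lines. The 3-factor, Blimp1 and Prdm14 differences were then 1.17, 1.5 and 1.72 (limma adjusted p = 0.192, 0.136 and 0.0712). For Sema6a the change from EpiLCs to day 1 was 1.57 in the parental line and -2.87 in the 3-factor line, whose own EpiLC arrays both read 6.16. It was -0.69 in the Blimp1 line and -0.21 in the Prdm14 line.

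The factor lines were also compared with each other on day 1. Parental arrays do not enter these differences, but they do enter the spread behind the SE and p, which was estimated over all 20 arrays. The Prdm14 and Blimp1 lines differed at 12 of 59 members (20.3%; 6.49% of all genes). Higher with Prdm14 were Epha2 by 1.50 (SE 0.12, limma adjusted p = 2.13e-06), Efnb2 by 1.26 (SE 0.17, limma adjusted p = 0.000156) and the plexin Plxna4, which read 4.45 and 4.88 against 3.77 and 3.50 (1.03, SE 0.29, limma adjusted p = 0.0198). The other Efnb2 probe sets gave 1.33, 0.18 and -0.96, and their mean with the first ended the call (0.46, limma adjusted p = 0.0722). Lower with Prdm14 were Plxnb2 (-1.71, SE 0.08, limma adjusted p = 2.46e-08), Rtn4rl1 (-2.88, SE 0.17, limma adjusted p = 1.26e-07), Sema4c (-1.15, SE 0.10, limma adjusted p = 4.11e-06), Unc5b (-2.48, SE 0.40, limma adjusted p = 0.000572) and Efnb1 (-1.73, SE 0.39, limma adjusted p = 0.00484).

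The other members lower with Prdm14 than with Blimp1 were Sema3c, Rgma, Rgmb and Epha10. Sema3c read 5.57 and 5.66 against 6.90 and 6.98 (-1.32, SE 0.24, limma adjusted p = 0.00115), but its second probe set gave -0.01 and the mean of both -0.67, under the size rule. Rgmb, the relative of Rgma, read 5.78 and 5.40 against 6.79 and 6.63 (-1.12, SE 0.30, limma adjusted p = 0.0149), and the mean of its probe sets gave -0.73. Neither pair of groups overlapped. The Rgma difference was -3.01, with the Prdm14 mean below the filter level. The Epha10 difference was -2.38 (SE 0.65, limma adjusted p = 0.0153), with the means of both lines below that level. The calls of Plxna4, Rgmb and Epha10 each ended when 1 array was left out: without the second Prdm14 array their limma adjusted p-values were 0.141, 0.107 and 0.15. Without the second Blimp1 array Plxna4 gave 0.115 and Epha10 0.0569, and without the first Rgmb gave 0.0788 and Epha10 0.0702.

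The 3-factor line differed from the Prdm14 line at 2 of 59 members (3.39%; 1.04% of all genes), Sema6a and Efnb2, both lower in the 3-factor line. Sema6a differed by -2.72 (SE 0.16, limma adjusted p = 3.21e-06), but its other probe sets gave -0.34 and 0.54, the latter in the opposite direction. Efnb2 differed by -1.26 (SE 0.17, limma adjusted p = 0.00107). With the mean of all probe sets of a gene, or with only the 4 arrays compared, neither call remained. For the other members a p that missed the threshold does not show that the lines were alike: their differences ran from -1.74 to 1.27.

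Against the Blimp1 line, the 3-factor line differed at 8 of 59 members (13.6%; 6.46% of all genes). Epha2 was 1.41 higher (SE 0.12, limma adjusted p = 3.4e-06). Lower were Plxnb2 (-1.73), Rtn4rl1 (-3.48), Unc5b (-3.06), Sema4c (-1.57), Sema3e (-1.30) and Sema6a (-2.39), with limma adjusted p-values from 1.81e-08 for Plxnb2 to 0.000116 for Unc5b, and Rgma (-3.69). The other 2 Sema6a probe sets differed by -0.12 and -0.27, and their mean with the first gave -0.93, under the size rule. The mean over the Sema3e probe sets gave -0.94, also under it. Efnb2, low in both lines, was at 8.41 and 8.25 in the 3-factor line and 8.50 and 8.16 in the Blimp1 line, which overlapped.

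Of the 59 tested members, 38 were called in none of the 16 comparisons, and their group means spanned 0.18 to 3.24 on the log2 scale with a median span of 0.915. Of the A-type plexins, the class that binds Sema6a, Plxna1, Plxna2 and Plxna3 were among them and Plxna4 was not. Plxna1 read 9.38 and 9.34 in parental aggregates, 8.45 and 8.43 in the 3-factor line, 9.06 and 8.93 in the Blimp1 line and 8.70 and 8.45 in the Prdm14 line, with differences of -0.92, -0.36 and -0.79 that were smaller than the size rule but had limma adjusted p-values of 4.73e-05, 0.0387 and 0.000217. The 3-factor and Prdm14 arrays were the lowest. Plxna3 had the narrowest span of all, from a group mean of 6.61 to one of 6.79. Slit2 read 5.72 and 5.78 in parental aggregates and 6.60 and 6.85 in the 3-factor line (0.97, SE 0.16, limma adjusted p = 0.000514), which missed the size rule narrowly. Epha3, with the widest span, read 4.30 and 0.78 in Prdm14 EpiLCs and 4.08 and 5.06 in Prdm14 aggregates, against 2.29 and 2.26 in parental aggregates. It reached the filter level in the Prdm14 aggregates alone.

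Partners and effectors of the same pathways, a list of 66 genes on the array of which 61 were tested, were followed alongside the members. The list was chosen with earlier results of these data known. In parental aggregates against EpiLCs 10 were higher (16.4%; 3.95% of all genes) and 2 lower (3.28%; 2.61% of all genes), led by the adhesion molecule Nrcam (2.34, SE 0.12, limma adjusted p = 8.26e-08), the adaptor Grip1 (2.10, SE 0.17, limma adjusted p = 2.25e-06) and the Slit-Robo GTPase-activating protein Srgap3 (1.84, SE 0.15, limma adjusted p = 2.15e-06). Lower were Ngef, an exchange factor downstream of EphA receptors (-1.52, SE 0.22, limma adjusted p = 0.000235), and Rnd1, a GTPase that binds plexins (-1.0, SE 0.24, limma adjusted p = 0.0065). The list's median difference was 0.33, against 0.05 for all genes.

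In the 3-factor line on day 1, 2 of the 61 genes were higher (3.28%; 2.75% of all genes) and 6 lower (9.84%; 3.85% of all genes) than in the parental line. Trio, a guanine nucleotide exchange factor that acts downstream of netrin receptors, lay between 10.17 and 10.52 in EpiLCs and read 10.77 and 10.79 in parental aggregates, 7.20 and 7.50 in the 3-factor line, 10.49 and 10.08 in the Blimp1 line, 7.90 and 7.97 in the Prdm14 line, and 10.70 and 10.53 in the Tfap2c line. Low arrays were again those of the 3-factor and Prdm14 lines. Trio differed by -3.43 (SE 0.14, limma adjusted p = 5.32e-09). Pdzrn3, a PDZ-domain ubiquitin ligase, read 8.69 and 8.89 in parental aggregates, 5.35 on both arrays of the 3-factor line and 6.54 and 6.77 in the Prdm14 line, and differed in the 3-factor line by -3.44 (SE 0.17, limma adjusted p = 2.67e-08). Nrcam read 7.67 and 7.56 in parental aggregates, 5.54 and 5.66 in the 3-factor line, 7.72 and 8.08 in the Blimp1 line and 5.43 and 5.56 in the Prdm14 line. The 3-factor and Prdm14 arrays were near the EpiLC range of 5.02 to 5.89, and the difference in the 3-factor line was -2.02 (SE 0.12, limma adjusted p = 1.26e-07).

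Rtn4rl2, the other Nogo receptor homologue, was dim and differed by -2.37 in the 3-factor line (SE 0.39, limma adjusted p = 0.000658). Limk2 was called higher in the 3-factor line (1.61) but not in the Blimp1 line. Srgap3 was the only listed gene called higher in both the 3-factor line (1.49, SE 0.15, limma adjusted p = 9.58e-06) and the Blimp1 line (1.82, SE 0.15, limma adjusted p = 8.31e-06). It read 6.44 and 6.78 in parental aggregates, 8.08 and 8.12 in the 3-factor line and 8.32 and 8.53 in the Blimp1 line, without overlap. In the Blimp1 line 4 of the 61 were higher (6.56%; 1.39% of all genes) and 0 lower (1.19% of all genes). In the Prdm14 line 1 was higher (1.64%; 2.17% of all genes) and 4 lower (6.56%; 3.19% of all genes). The 4 lower in the Prdm14 line were Trio (-2.84), Pdzrn3 (-2.13), Rtn4rl2 (-2.13) and Nrcam (-2.12), which were lower in the 3-factor line too, against the same parental arrays. In the Tfap2c line 0 passed in either direction. List medians in the 3-factor, Blimp1, Prdm14 and Tfap2c lines were -0.045, 0.145, -0.105 and 0.01.

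**Figure D4:**
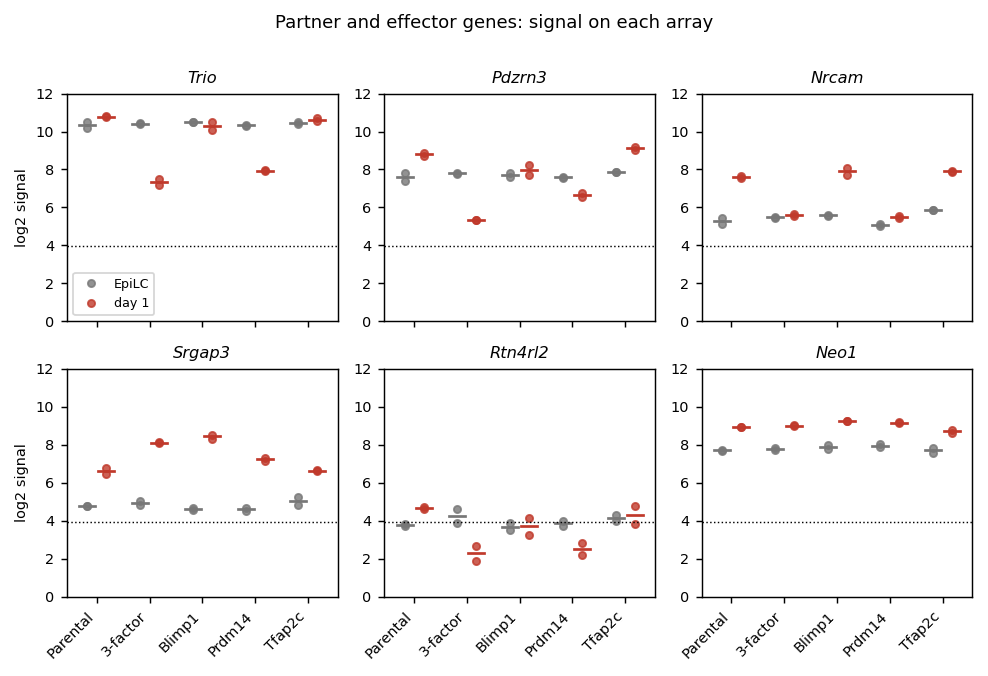
Log2 signal (vertical axes) on each of the 20 arrays for 6 partner and effector genes. Points are single arrays, short bars are group means, grey marks EpiLCs, red marks day 1, and the dotted line is the filter level of 3.95. The red points of Trio, Pdzrn3, Nrcam and Rtn4rl2 are lower in the 3-factor and Prdm14 columns than in the parental column, those of Srgap3 are highest in the Blimp1 and 3-factor columns, and those of Neo1 are above the grey points in every line.

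Markers of some other cell states also differed from the parental line on day 1, not all in the same direction. The mean of 8 neural markers was 5.90 to 6.13 on the parental day 1 arrays and 5.25 to 5.40 in the 3-factor line. Of 7 tested there, 2 were lower (Sox1 and Nes) and 0 were higher. Neurog2 and Dcx, which mark neuronal precursors and young neurons, were below the filter level in both groups. The neural marker Stmn2 went the other way, with a mean of 9.59 in the 3-factor line against 8.81 in parental aggregates, without a call. In the Prdm14 line Sox1 was lower (-2.53) and Stmn2 higher (1.24). In the Blimp1 line Nes was lower and 0 were higher. The mean of 7 fibroblast or feeder markers was 5.55 to 5.63 in parental aggregates and 4.46 to 4.49 in the 3-factor line, with 3 of 5 tested lower, while Col1a1 and Postn were below the filter level in every group. The epiblast markers averaged 11.50 to 11.62 in parental aggregates, 10.02 to 10.08 in the 3-factor line and 10.78 to 10.81 in the Prdm14 line. They did not move together: in the 3-factor line Pou3f1 (-4.88), Dnmt3b (-3.34) and Otx2 (-1.75) were lower and Sox2 higher (1.84). In the Prdm14 line Pou3f1 (-3.31) and Dnmt3b (-2.07) were lower and Sox2 higher (1.79). In the Blimp1 line Otx2 was lower (-1.49) and Sox2 higher (1.12). The early germ cell markers include Prdm1 and Tfap2c. They averaged 6.41 to 6.52 in parental aggregates, 10.38 to 10.48 in the 3-factor line and 9.36 to 9.51 in the Prdm14 line. In the same groups, 5 naive stem cell markers averaged 6.63 to 6.69, 8.39 to 8.47 and 8.64 to 8.82. The 5 endoderm markers averaged 3.76 to 3.79 in parental aggregates and 3.65 to 3.96 in the 3-factor line, which overlapped. The part of these states in the guidance gene differences was not tested.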

How the data were processed

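Total RNA was measured on 20 single-colour Affymetrix arrays. Per the labels' protocols, RNA was purified on columns and labelled by the maker's one-cycle protocol. The authors deposited log2 values, 1 for each probe set on each array. Base 2 was inferred from the range. The sources used here do not give the normalization, the summarisation of probes or the software. The deposited log2 values were used unchanged.

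The platform annotation named 1 gene for 34945 probe sets, several for 932 and none for 9160; the maker's 64 control probe sets were left out. Each gene was read from the probe set with the highest mean, and kept when a group mean reached the 40th percentile (3.95). All 72 members matched the RefSeq gene table (assembly GRCm38.p6) by Entrez identifier, and 0 were renamed. Limma 3.58.1 in R 4.3.3 fitted 10 group means to all 20 arrays, with 10 residual and 1.80 prior degrees of freedom. Tests are two-sided, with Benjamini-Hochberg adjustment of each comparison's p-values over all tested genes. The 2 arrays of a group are called biological duplicates, without a statement of what was separate, so p-values measure the spread between these samples.

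The members, the partner list and the markers were chosen with earlier results of these data known. The text names every called member, up to 12 in each direction, the brightest member of most families, and receptors or ligands of called members. Alternatives were 2 rescalings, other probe set and filter choices, a fit of only the arrays compared, a test against a log2 change of 0.5, a replicate block and leaving out each array. Python 3.11.15 and pandas 2.3.3 were used for tables. The number of arrays limits the precision.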

Additional observations from a re-analysis of the deposited data

Results flagged for a closer look

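In 22 cases the change of a member from EpiLCs to day 1 differed between a factor line and the parental line by a test of that difference, a contrast of the limma fit with adjustment over all genes. The comparisons share the parental arrays, and the cause of the differences was not tested. Values are the line's change minus the parental change on the log2 scale.

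In the 3-factor line the difference was -4.44 for Sema6a, -4.04 for Rtn4rl1, -2.77 for Unc5b, -1.57 for Plxnb2, -1.55 for Efnb2, -1.47 for Sema3e, -1.29 for Sema4c and -1.12 for Efna5. It was 1.94 for Ntn1 and 1.22 for Epha2. The Ntn1 call ended with the mean of its probe sets, here and in the Prdm14 and Blimp1 lines below. Efna5 was called in no comparison on day 1 alone, and its difference ended without any one of the first parental EpiLC array, either parental day 1 array, the first 3-factor day 1 array or the second 3-factor EpiLC array (limma adjusted p from 0.0501 to 0.0812).

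In the Prdm14 line the difference was -3.53 for Rtn4rl1, -3.07 for Epha10, -2.16 for Unc5b, -1.79 for Slit3, -1.77 for Sema6a and -1.49 for Plxnb2. It was 2.10 for Ntn1 and 1.01 for Epha2. For Epha10 (limma adjusted p = 0.0485) and Unc5b (limma adjusted p = 0.0281) most single left-out arrays ended the call, and the Epha2 value is at the size rule.

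In the Blimp1 line the difference was -2.25 for Sema6a, -1.78 for Efnb2 and -1.70 for Slit3, and 1.59 for Ntn1. The Ntn1 call ended without the second Blimp1 EpiLC, the second parental day 1 or the second Blimp1 day 1 array (limma adjusted p from 0.0531 to 0.059). Slit3 read 4.42 and 4.47 in Blimp1 EpiLCs and 3.79 and 3.58 on day 1, against 3.97 and 3.38 and then 4.73 and 4.49 in the parental line, so the Blimp1 arrays went down and the parental arrays up. Groups of 2 arrays allow no test for an outlying array.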

How the results depend on the processing

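Of 80 calls of members over all comparisons, 41 stood under every alternative and 39 ended under at least 1; no called value changed its sign. Calls that ended numbered 22 of 78 with the mean of all probe sets of a gene, 21 of 80 with only the arrays compared, 19 with a test against a log2 change of 0.5, 5 without the low-value filter, 2 with arrays centred on their medians, 2 with quantile normalization and 0 with the filter set before the probe set choice. That last choice kept the probe set of every called member. Members with a single probe set, such as Plxnb2, Epha2 and Sema4c, likewise kept their values under the probe set mean. In both cases only the other genes of the fit could differ, so these calls were hardly tried. With the mean of all probe sets, the parental stage comparison called 5 members in place of 9, the Blimp1 line on day 1 called 2 in place of 6, and the 3-factor against the Prdm14 line called 0 in place of 2. With only the arrays compared, fewer arrays estimate the spread: the Blimp1 line called 1, its change against the parental change 2 in place of 4, and the 3-factor against the Prdm14 line 0. Against a log2 change of 0.5, the Blimp1 line called 3, the Prdm14 change 5 in place of 8, and the 3-factor against the Prdm14 line 1. Other causes were not tested. Leaving out 1 array gave 8 to 11 members for the parental stage comparison, 10 to 14, 4 to 7 and 7 to 11 for the 3-factor, Blimp1 and Prdm14 lines on day 1, 10 to 12, 3 to 7 and 5 to 8 for their changes against the parental change, and 2 to 3, 8 to 10 and 11 to 13 for the 3-factor line against Prdm14, against Blimp1, and Prdm14 against Blimp1; the EpiLC and Tfap2c comparisons stayed at 0. The Prdm14 change had 5 without the first Prdm14 EpiLC, the second parental EpiLC or the second Prdm14 day 1 array, and the Blimp1 change 7 without the second Blimp1 day 1 array. A group's single remaining array is then taken to vary as the other groups do. Replicate numbers showed little pairing over all tested genes. Over 45 pairs of groups, deviations of same-numbered arrays correlated at -0.0625 to 0.2, with 6 above 0.1. Pairing in single genes was not tested, and Unc5b read higher on the first array than on the second in most groups. With the replicate number as a block, the parental, 3-factor, Blimp1 and Prdm14 comparisons called 9, 12, 6 and 8 members, and Rgma in the Prdm14 line was lost (limma adjusted p = 0.0573). Signals near the filter level limit what can be said of Rgma, Epha10, Sema4f, Slit3, Rtn4rl1, Sema6a in the 3-factor line, Plxna4, Sema4g, and Efnb1 and Ntn1 in EpiLCs.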
